A study of Mus musculus with 6 samples.

Results

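Leukemia 92, an acute B-lymphoblastic leukemia of the mouse that carries a Mll-Af4 fusion and N-RasG12D, was compared with wild-type pro-B cells by RNA sequencing. The comparison rests on 4 of the 6 libraries of the series, 2 from leukemia 92 and 2 from pro-B cells. The leukemia libraries came from primary leukemia cells of bone marrow with the genotype Mll-Af4/ N-RasG12D, and the pro-B libraries from wild-type marrow cells gated as B220+CD43+IgM-. The model started from the marrow of Mll-Af4 mice aged 6 to 8 weeks, from which lineage-negative cells bearing c-Kit and Sca1 were sorted and held overnight in lymphoid medium with cytokines. Those cells received the retrovirus MSCV-cre-IRES-TdTomato, were sorted for Tomato, and were then given a retrovirus with N-RasG12D. Per the labels, 250000 such cells were put into lethally irradiated recipients (900 rads) along with 200000 wild-type helper marrow cells, so the host marrow also held cells that were not leukemic. No group was given a drug, the age of the pro-B donors and any sort of the leukemia cells before RNA extraction are not stated, and no library of Mll-Af4 cells without N-RasG12D is among the samples. Leukemia 92 is 1 leukemia. The labels do not say whether its libraries, or those of the pro-B cells, came from separate animals, so each p below measures the spread between libraries, which may be technical, and no result extends to other leukemias.

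Pro-B cells are early B-cell progenitors. They rearrange their immunoglobulin heavy chain genes with the RAG recombinase and terminal transferase, under transcription factors such as Pax5 and Ebf1 and under interleukin-7. An MLL-AF4 fusion joins the chromatin-binding part of MLL (Mll1, now Kmt2a) to AF4 (Aff1), a member of a complex that drives transcript elongation, and is known for keeping HOXA genes and MEIS1 active. N-Ras is a GTPase that passes signals from surface receptors to RAF, MEK and ERK kinases. Its G12D form stays bound to GTP, and ERK then induces immediate early transcription factors together with its own inhibitors. The series addresses combined inhibition of MEK, a kinase of this cascade, and of ATR, the kinase that guards stalled replication forks.

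Gene counts summed to 25381643 and 22153444 in leukemia 92 and to 25030842 and 24026378 in pro-B cells. Levels are given in CPM, counts scaled to a common library size with TMM factors, always with replicate 1 before replicate 2. Changes are on the log2 scale, leukemia 92 over pro-B, with the adjusted p of edgeR's quasi-likelihood test (Benjamini-Hochberg over 14585 genes). Rose and fell are used of genes with an adjusted p under 0.05. Both pairs were tight, with an SD of log2 differences between replicates of 0.253 in leukemia 92 and 0.249 in pro-B cells. Sampling noise alone did not account for the differences within a pair, with a chi-square per gene of 7.88 and 8.11. Leukemia 1, the other leukemia of the series, had an SD of 1.04 between its libraries and entered the comparison with pro-B cells as an alternative setting alone, the spread of all 6 libraries. Counts of list members under that setting are given in parentheses where it moved them by over 1.5 times.

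Most genes differed. Of 14585 genes tested, 4940 rose (33.9%) and 5507 fell (37.8%), so 71.6% passed, and every count of list members below stands against these shares. At least 2-fold changes were found upward in 2387 genes (16.4%) and downward in 2850 genes (19.5%), 35.9% together. At least 16-fold, 419 genes rose and 958 fell. Of the 14585 genes, 6033 had both leukemia libraries above both pro-B libraries and 6664 had both below. Such a separation, pointed out for some genes below, was thus the rule. The median log2 change of all genes was -0.04. Scaling by total counts alone moved that median to -0.20 and the share of higher genes among those called from 47.3% to 37.97%, so differences of about this size depend on the scaling.

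**Figure D1:**
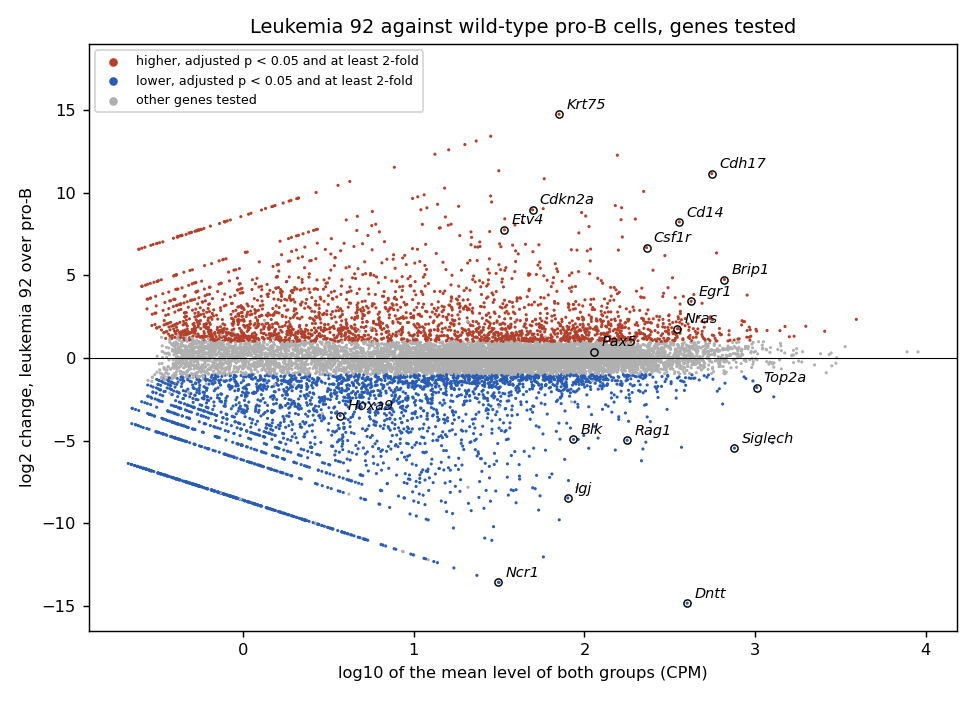
Each point is 1 of the 14585 genes tested, with the log10 mean CPM of both groups on the horizontal axis and the log2 change on the vertical axis. Red and blue mark the 2387 genes higher and the 2850 genes lower by at least 2-fold at an adjusted p under 0.05, and circles mark genes described in the text, from Krt75 at the top to Dntt at the bottom.

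The sorted pro-B libraries held transcripts known as markers of other cells of the marrow. Natural killer and T-cell markers summed to 73.8 and 76.7 CPM in leukemia 92 and 1152 and 1175 CPM in pro-B cells. Dendritic cell markers, including those of plasmacytoid dendritic cells, which carry B220 too, summed to 5880.5 and 6603 CPM in pro-B cells and to 2597 and 2575 CPM in leukemia 92. That list shares Tcf4, Spib and Irf8 with the B-lineage factors below and Flt3 with the early B-cell surface markers. Its sums can thus also hold transcripts of B-lineage cells. Myeloid markers went the other way, with 6668 and 5527 CPM in leukemia 92 and 1896 and 2139 CPM in pro-B cells. In such bulk samples fewer cells of a type and less RNA per cell cannot be told apart. The part of these cells in the changes below was not tested. Some of the genes that mark them are pointed out where they appear, and genes without such a remark may be read from these cells too.

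Nras, the gene of the introduced oncogene, was read at 531 and 553 CPM in leukemia 92 and 159 and 158 CPM in pro-B cells (log2 change 1.77, SE 0.06, adjusted p = 8.9e-08). Both leukemia libraries lay above both pro-B libraries, by about the same amount. Reads of the retroviral N-RasG12D and of the mouse's own Nras are not told apart in these counts.

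Genes that load Ras with GTP or unload it moved in both directions. Of the Ras proteins and regulators, 11 of 25 members tested rose and 6 fell, while 8 did not pass (4 rose and 3 fell with the spread of all 6 libraries), with a median log2 change of 0.12. Rasgrp1, the exchange factor that acts below antigen receptors of lymphocytes, fell from 42.7 and 51.3 CPM in pro-B cells to 0.921 and 0.762 CPM in leukemia 92 (log2 change -5.79, SE 0.17, adjusted p = 5.6e-08). Rasgrp4, an exchange factor best known from mast cells, had 46.7 and 48.3 CPM in leukemia 92 and 8.83 and 8.23 CPM in pro-B cells (log2 change 2.48), a rise that was lost with the spread of all 6 libraries (adjusted p = 0.13). Rras2, a Ras-related GTPase, fell (log2 change -3.08), and Rasal1, which speeds GTP hydrolysis by Ras, rose (1.78).

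Few kinases of the cascade changed by 2-fold or more. Of the RAF, MEK and ERK kinases and scaffolds, 8 of 15 members tested rose and 4 fell, while 3 did not pass (5 rose and 2 fell with the spread of all 6 libraries), and the changes of at least 2-fold were 2 rises and 1 fall (2 and 0 with that spread). With scaling by total counts 7 fell. Ksr2, a scaffold of the cascade, rose most, from 0.263 and 0.238 to 7.07 and 10.4 CPM (log2 change 5.09, SE 0.33, adjusted p = 3.5e-06). Map2k1, which encodes MEK1, was at 135 and 127 CPM in leukemia 92 and 73.4 and 68.5 CPM in pro-B cells (log2 change 0.88), and Braf at 82.9 and 83.7 against 55.9 and 57.4 CPM (log2 change 0.56, adjusted p = 0.26 with the spread of all 6 libraries). Mapk3, which encodes ERK1, did not pass (-0.15). Rps6ka1, a kinase that ERK activates, rose from 196 and 219 to 465 and 485 CPM (1.19), while its relative Rps6ka3 fell (-0.73). Iqgap1, a scaffold, rose (0.95) and Ksr1, another, fell (-1.1, adjusted p = 0.057 with the spread of all 6 libraries).

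Most of the inhibitors that ERK induces against itself were higher in leukemia 92. Of the ERK feedback inhibitors, 12 of 16 members tested rose and 2 fell, while 2 did not pass (9 rose and 1 fell of 17 tested with the spread of all 6 libraries), and 10 rose at least 2-fold against 16.4% of all genes, and the median log2 change was 1.67. Dusp6, the phosphatase that removes the activating phosphates of ERK in the cytoplasm, had 486 and 527 CPM in leukemia 92 and 142 and 142 CPM in pro-B cells (log2 change 1.84, SE 0.06, adjusted p = 1.2e-07). All 4 libraries separated by group. Dusp7, a phosphatase of the same class, had 279 and 255 CPM in leukemia 92 and 17.9 and 21.9 CPM in pro-B cells (log2 change 3.75, SE 0.11, adjusted p = 1.1e-07). Spry4, which blocks the path from receptors to Ras, rose from 1.32 and 2.3 to 42.3 and 45.6 CPM (4.61). Spred1, which brings the Ras inhibitor neurofibromin to the membrane, rose from 45.5 and 47.5 to 373 and 314 CPM (2.88). Dusp5, a nuclear ERK phosphatase, read 584 and 618 CPM in leukemia 92 and 76.9 and 136 CPM in pro-B cells (2.5), and its call was lost without either leukemia 92 library (adjusted p = 0.15 in each case).

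The Sprouty genes split. Spry2 had 14.3 and 16.1 CPM in leukemia 92 and 31.5 and 43.2 CPM in pro-B cells and fell (log2 change -1.3, SE 0.16, adjusted p = 0.00046), a call lost with the spread of all 6 libraries (adjusted p = 0.066). Spry1 fell from 10.7 and 16.6 to 2.22 and 2.28 CPM (-2.59). So 2 members of the same inhibitor family were lower in leukemia 92 and 1 was higher.

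Most transcription factors and other early genes downstream of ERK were higher too. Of these, 16 rose, 2 fell and 5 did not pass (11 rose and 0 fell with the spread of all 6 libraries) among 23 tested, with 13 rises of at least 2-fold and a median log2 change of 1.6. Egr1, an immediate early zinc finger factor, had 817 and 726 CPM in leukemia 92 and 73.4 and 69.6 CPM in pro-B cells (log2 change 3.43, SE 0.08, adjusted p = 2.3e-08). Etv4, an ETS factor that is switched on by ERK, had 71.2 and 64.2 CPM in leukemia 92 and 0.263 and 0.356 CPM in pro-B cells (log2 change 7.75, SE 0.16, adjusted p = 1.4e-08). The levels of Etv4 in pro-B cells were near the limit of detection, and those in leukemia 92 were similar in both libraries. Egr3 was at 41.98 and 52.1 against 0.451 and 0.435 CPM (6.71), Etv5 at 155 and 149.6 against 18.3 and 20.9 CPM (2.96) and Phlda1, another early response gene, at 127 and 133 against 7.52 and 8.27 CPM (4.04).

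Fos, a partner in the AP-1 factor, rose from 187 and 162 to 1000.5 and 831 CPM (2.39, adjusted p = 0.071 with the spread of all 6 libraries), while Jun, with which it pairs, fell slightly from 305 and 256 to 177 and 171 CPM (-0.69, adjusted p = 0.56 with that spread). Ccnd1, the D-type cyclin most used as a readout of ERK, rose from 105 and 124 to 618 and 572 CPM (2.38). Myc rose less, from 56.8 and 46.4 to 83.2 and 91.3 CPM (log2 change 0.76, SE 0.1, adjusted p = 0.00044). Immediate early genes also respond to the handling of cells, and the sorting time of each group is not given, so the part of handling was not tested.

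**Figure D2:**
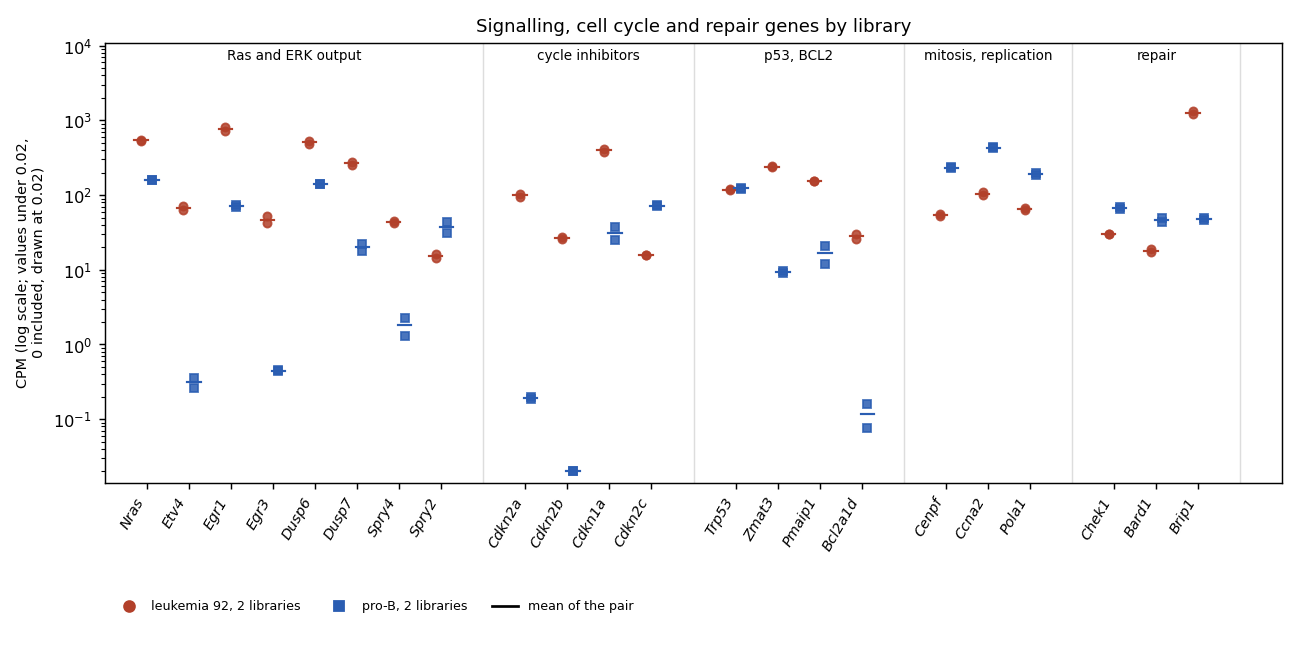
CPM on a log axis of signalling, cell cycle, p53, BCL2 family and repair genes in the 2 leukemia 92 libraries (circles) and the 2 pro-B libraries (squares), with a bar at each pair's mean. Egr1, Etv4, Dusp7 and Brip1 lie higher in both leukemia libraries, while Spry2 and Cenpf lie lower.

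Promoter letters were read for the ERK genes that rose at least 2-fold, because serum response factor, which works with ETS factors phosphorylated by ERK, binds a known sequence, the CArG box (CC, a run of A or T, then GG). Of 23 such genes, 15 matched RefSeq promoters of the build GRCm38.p6, in 21 windows of 250 bases before a transcript start. A CArG box stood in windows of 2 of the 15 genes, Dusp5 and Egr2, and in 1.47% of 32851 windows of all genes. A gene can have several windows, so counts of genes and shares of windows here and below are not like for like. Genes without a matched promoter were not searched, nor were bases beyond these windows. The windows around these boxes are shown with the boxes in capitals, on the plus strand, at chr19:53529038-53529107 for Dusp5 and at chr10:67537469-67537528 and chr10:67537772-67537831 for Egr2.
Dusp5: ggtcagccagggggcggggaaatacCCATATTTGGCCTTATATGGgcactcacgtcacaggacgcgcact
Egr2, first box: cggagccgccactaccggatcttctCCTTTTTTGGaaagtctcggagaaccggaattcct
Egr2, second box: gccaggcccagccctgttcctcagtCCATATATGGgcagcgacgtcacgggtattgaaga
In Dusp5 a pair of boxes adjoin, and the stretch shown overlaps 1 annotated exon. The 2 windows of Egr2 belong to different transcript starts, and Egr2 was at 19.8 and 16.6 against 2.52 and 3.37 CPM (log2 change 2.63). The other motifs searched on both strands were the ETS letters CCGGAAGT, found in 0 of the matched genes and in 2.88% of all windows, the AP-1 letters TGANTCA (0, against 6.75%) and the cyclic AMP response letters TGACGTCA (1 gene, Errfi1, against 1.55%). A match is a description of the letters and shows no binding.

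Known targets of MLL fusions did not move together upward. Of them, 9 of 24 members tested rose and 13 fell, while 2 did not pass (3 rose and 9 fell with the spread of all 6 libraries), and at least 2-fold changes were 6 up and 12 down (3 and 9 with that spread), with a median log2 change of -1.3. Hoxa9, the homeobox gene most tied to MLL leukemia, had 0.377 and 0.857 CPM in leukemia 92 and 6.84 and 6.73 CPM in pro-B cells (log2 change -3.48, SE 0.32, adjusted p = 2.4e-05). Meis1, its partner, had 4.69 and 3.47 CPM in leukemia 92 and 9.36 and 9.46 CPM in pro-B cells (log2 change -1.2, SE 0.18, adjusted p = 0.00047). Both genes were low in both groups and lower in both leukemia libraries, and both calls were lost with the spread of all 6 libraries (adjusted p = 0.11 and 0.31). Hoxa7 was at 0.167 and 0.286 against 6.69 and 7.44 CPM (-4.95), and Eya1, a HOX-linked phosphatase, had 2 counts in leukemia 92 in all and was 447-fold lower, with a 95% exact interval of 123 to 3694. Zfp521, a zinc finger factor of early progenitors, also had 2 counts and was 286-fold lower, with a 95% exact interval of 78.9 to 2368.

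Other targets rose. Igf2bp3, an oncofetal RNA-binding protein, had 90.4 and 87.96 CPM in leukemia 92 and 5.08 and 5.5 CPM in pro-B cells (log2 change 4.08, SE 0.08, adjusted p = 1.4e-08). Mef2c, a MADS-box factor of lymphoid and myeloid progenitors, went from 266 and 289 to 971 and 945 CPM (1.79), Lmo2, a bridging factor of blood progenitors, from 53.04 and 55.3 to 175 and 185 CPM (1.73), Runx1 from 101 and 95.4 to 215 and 248 CPM (1.24) and Pbx3, a HOX cofactor, from 3.12 and 2.89 to 10.5 and 11.7 CPM (1.88). The calls of Mef2c and Runx1 were lost with the spread of all 6 libraries (adjusted p = 0.065 and 0.063). Flt3, a receptor on early progenitors and dendritic cells, had 83.9 and 39.98 CPM in leukemia 92 and 156 and 169.6 CPM in pro-B cells and did not pass (adjusted p = 0.071). Its leukemia libraries differed from each other, and it passed as lower in 5 of the 11 other settings at that threshold: with DESeq2 (adjusted p = 0.016), with the spread of all 6 libraries (0.042), with the leukemia 92 libraries summed (1.1e-06), and without leukemia 92 replicate 1 (2.9e-08) or 2 (7.4e-06). Runx2 (-2.42) fell, and is a marker of plasmacytoid dendritic cells as well, whose marker transcripts were higher in the pro-B libraries.

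Mll1 was read at 133 and 118 CPM in leukemia 92 and 267 and 255 CPM in pro-B cells (log2 change -1.06, SE 0.07, adjusted p = 4.7e-06) and Aff1 at 196 and 170.4 against 237 and 260.1 CPM (log2 change -0.44). Both were lower in both leukemia libraries, and both calls were lost with the spread of all 6 libraries (adjusted p = 0.069 and 0.33). Counts of the fusion and of the normal genes cannot be told apart here. Among other members of the MLL and AF4 complexes, changes were small, and in the whole list 11 of 25 members tested rose and 11 fell, while 3 did not pass (3 rose and 4 fell with the spread of all 6 libraries). Psip1, which tethers MLL and menin to chromatin, fell from 246 and 242 to 80.8 and 83.4 CPM (-1.57), and Mllt3, itself a fusion partner of MLL, from 39.9 and 31.6 to 9.12 and 8.28 CPM (-2.04). Mllt6 rose (0.89).

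The B-cell identity of the leukemia was checked on its defining genes. Pax5 had 129 and 129.5 CPM in leukemia 92 and 98.3 and 99.8 CPM in pro-B cells (log2 change 0.38, SE 0.06, adjusted p = 0.00044) and Ebf1 had 292 and 287 CPM in leukemia 92 and 457 and 438 CPM in pro-B cells (log2 change -0.63, SE 0.06, adjusted p = 2.3e-05). Both factors were well above detection in all 4 libraries, and both calls were lost with the spread of all 6 libraries (adjusted p = 0.069 and 0.058). Ptprc, which encodes CD45 and so B220, had 1387 and 1398 CPM in leukemia 92 and 796 and 823 CPM in pro-B cells (log2 change 0.78, adjusted p = 0.14 with the spread of all 6 libraries), and Spn, which encodes CD43, fell from 309 and 311 to 146 and 115 CPM (log2 change -1.25, SE 0.11, adjusted p = 8.0e-05). B220 and CD43 were used in the pro-B gate.

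Most of the other B-lineage transcription factors were lower. Of the list, 8 of 31 members tested rose and 21 fell, while 2 did not pass (3 rose and 12 fell with the spread of all 6 libraries), and at least 2-fold changes were 5 up and 14 down (3 and 10 with that spread). Ikzf2, Helios, of the Ikaros family, had 14.8 and 16.5 CPM in pro-B cells and 0 counts in leukemia 92, at least 234-fold lower against a floor of 3 counts over the pair. Gfi1, a repressor in progenitors, fell from 30.4 and 28.3 to 0.712 and 0.476 CPM (-5.6, adjusted p = 0.065 with the spread of all 6 libraries), and Id3, an inhibitor of E proteins, from 43.5 and 43.03 to 2.09 and 2.52 CPM (-4.23). Bach2, a repressor that supports B-cell development, went from 293 and 339 to 35.3 and 27.6 CPM (-3.33) and Lef1, a partner of beta-catenin, from 263 and 224 to 32.7 and 31.7 CPM (-2.92). Spib (-3.11) fell too, and it marks plasmacytoid dendritic cells, whose marker transcripts were higher in the pro-B libraries. Sfpi1, the older symbol of PU.1 and a factor of both myeloid and B cells, rose from 21.95 and 26.2 to 205 and 195 CPM (log2 change 3.05, SE 0.09, adjusted p = 6.1e-08), and Gfi1b rose (1.87).

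Parts of the pre-B receptor and of its signalling chain were higher, while the kinases named here were lower. Of the list, 14 of 25 members tested rose and 7 fell, while 4 did not pass (10 rose and 3 fell with the spread of all 6 libraries). Cd79a, the signalling subunit of the receptor, had 1396 and 1469 CPM in leukemia 92 and 457 and 419 CPM in pro-B cells (log2 change 1.71, SE 0.07, adjusted p = 2.5e-07). Igll1 and Vpreb1, which form the surrogate light chain, had log2 changes of -0.52 (adjusted p = 0.0020) and 0.26 (adjusted p = 0.052). The call of Igll1 was lost with the spread of all 6 libraries (adjusted p = 0.30), and Vpreb1 passed as higher in 4 settings, with DESeq2 (adjusted p = 0.027) and in edgeR with median-of-ratios scaling (0.047), with the replicate number as a block (0.027) and without pro-B replicate 1 (0.0024). Ighm, the mu heavy chain gene, had 1746 and 1915 CPM in leukemia 92 and 3305 and 3468 CPM in pro-B cells (log2 change -0.89, SE 0.07, adjusted p = 1.1e-05), with an adjusted p of 0.063 with that spread. Blk, a Src kinase of B cells, fell from 150.3 and 183 to 4.1 and 6.997 CPM (-4.92), Prkcb, a kinase that links the receptor to NF-kappaB, fell (-2.36), and Syk, listed as Sykb, fell from 654 and 691 to 282 and 254 CPM (-1.33). Bank1, a B-cell scaffold, rose from 7.37 and 9.42 to 160.3 and 177 CPM (4.33).

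The machinery of V(D)J recombination was mostly lower in leukemia 92. Of its list, 2 of 15 members tested rose and 12 fell, while 1 did not pass (0 rose and 9 fell with the spread of all 6 libraries), with a median log2 change of -1.4. Dntt, the terminal transferase that adds bases at the joints, had 984 and 614 CPM (41685 counts) in pro-B cells and 1 count in leukemia 92, in replicate 1. That is 36091-fold lower, with a 95% exact interval of 6477 to 1425570.0, and the adjusted p was 0.00029. Without leukemia 92 replicate 1 the call was lost (adjusted p = 0.055), although the libraries did not overlap. Rag1, which cuts at the recombination signals, had 11.3 and 10.6 CPM in leukemia 92 and 365 and 324 CPM in pro-B cells (log2 change -4.97, SE 0.09, adjusted p = 1.0e-08). Rag2 had 1.8 and 1.81 CPM in leukemia 92 and 48.01 and 37.97 CPM in pro-B cells (-4.57). Both RAG genes were low in both leukemia libraries. Lig4, the ligase of end joining, fell from 85.6 and 94.3 to 10.3 and 8.14 CPM (-3.28), and of the Ku proteins that bind broken ends, Xrcc5 (Ku80) fell from 37.1 and 36.6 to 1.51 and 1.95 CPM (-4.42) and Xrcc6 (Ku70) from 364 and 297 to 86.6 and 82.5 CPM (-1.97, adjusted p = 0.14 with the spread of all 6 libraries). Polm, a polymerase of end joining, rose (1.23, adjusted p = 0.088 with that spread).

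Most surface markers of pro-B and early B cells fell as well. Of them, 5 of 17 members tested rose and 11 fell, while 1 did not pass (2 rose and 11 fell with the spread of all 6 libraries), and 11 fell at least 2-fold. Il7r, the interleukin-7 receptor chain, had 122 and 106 CPM in leukemia 92 and 379.9 and 324 CPM in pro-B cells (log2 change -1.63, SE 0.1, adjusted p = 8.8e-06). Kit, the receptor for stem cell factor, fell from 22.1 and 15.2 to 1.26 and 0.619 CPM (-4.29), and Cd24a, the heat stable antigen, from 2085 and 2212 to 454 and 391 CPM (-2.35). Tspan13, a tetraspanin, had 8.92 and 10.1 CPM in leukemia 92 and 459 and 402 CPM in pro-B cells (log2 change -5.5, SE 0.1, adjusted p = 1.2e-08). Nt5e, which encodes CD73, rose from 1.32 and 1.74 to 10.3 and 18.4 CPM (3.23, adjusted p = 0.055 with the spread of all 6 libraries).

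Genes of mature and activated B cells were mostly higher. Of this list, 21 of 26 members tested rose and 3 fell, while 2 did not pass, with 18 rises of at least 2-fold against 16.4% of all genes and a median log2 change of 1.4. Cd83, a marker of activation, had 149 and 183 CPM in leukemia 92 and 1.17 and 2.38 CPM in pro-B cells (log2 change 6.55, SE 0.27, adjusted p = 2.1e-05). Cr2, the complement receptor CD21, had 95.6 and 119 CPM in leukemia 92 and 1.54 and 2.3 CPM in pro-B cells (log2 change 5.81, SE 0.19, adjusted p = 1.3e-06). Ms4a1, which encodes CD20, rose from 12.97 and 16.5 to 294 and 274 CPM (4.27). The costimulatory ligand genes rose together, Cd80 from 0.601 and 0.435 to 30.5 and 27.8 CPM (5.79), Cd86 from 3.08 and 4.71 to 57.3 and 43.6 CPM (3.7) and Icosl from 13.7 and 14.3 to 267 and 275 CPM (4.27). Of the antigen presentation genes, Cd74, the invariant chain, rose from 552 and 706 to 2530.5 and 2196 CPM (1.91, adjusted p = 0.078 with the spread of all 6 libraries) and H2-DMb2 from 6.99 and 9.66 to 163 and 147 CPM (4.22). Myeloid cells express several of these genes too, and myeloid markers were higher in leukemia 92. Ccr7, a homing receptor, fell (-5.48), and so did Fcrla, an intracellular Fc receptor-like protein of B cells (-2.42).

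Plasma cell genes were mostly lower in leukemia 92. Of these, 2 of 14 members tested rose and 9 fell, while 3 did not pass (1 rose and 4 fell with the spread of all 6 libraries). Igj, the J chain of secreted antibodies, had 0.586 and 0.286 CPM in leukemia 92 and 143 and 176 CPM in pro-B cells (log2 change -8.47, SE 0.22, adjusted p = 2.6e-07), with an adjusted p of 0.070 with the spread of all 6 libraries. Sdc1, which encodes CD138, fell from 51.3 and 58.04 to 3.06 and 2.43 CPM (-4.31). Edem1, a factor of protein degradation at the endoplasmic reticulum, rose (2.06).

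**Figure D3:**
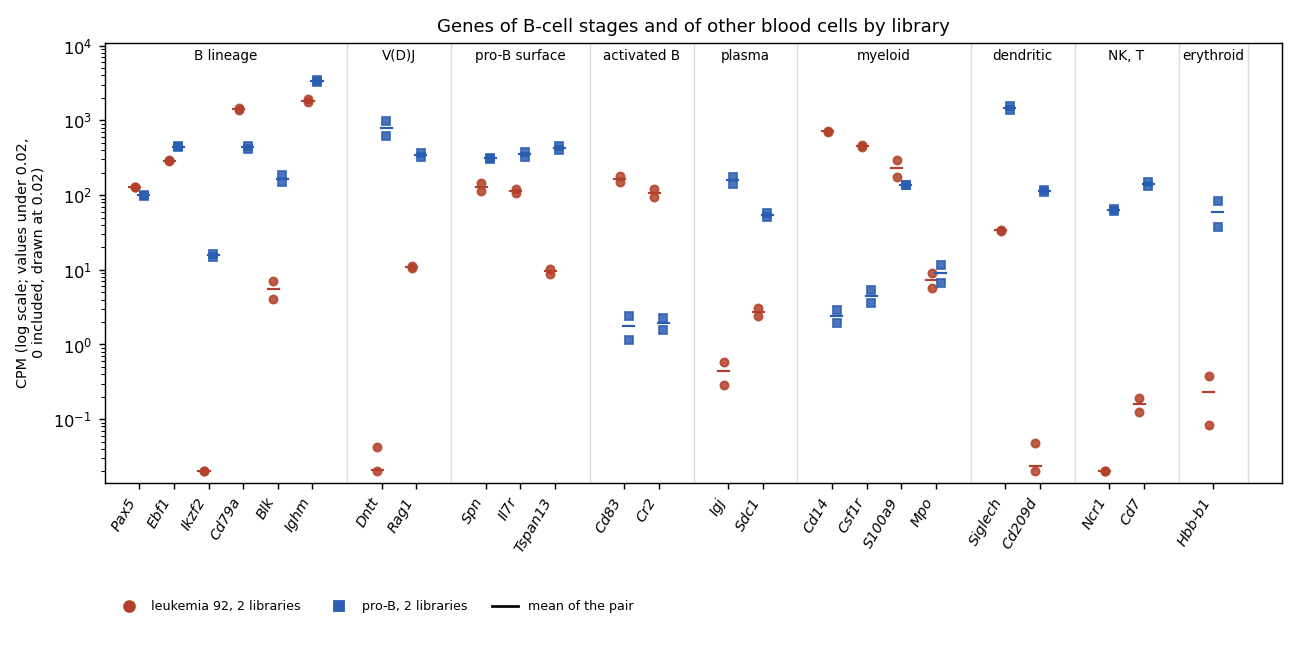
CPM on a log axis of genes of B-cell stages and of other blood cells in the 2 leukemia 92 libraries (circles) and the 2 pro-B libraries (squares), with a bar at each pair's mean and values under 0.02 drawn at 0.02. Pax5 and Ebf1 lie close between the groups, Dntt, Rag1 and Ncr1 lie far lower in leukemia 92, and Cd83, Cd14 and Csf1r far higher.

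Among JAK and STAT genes, 11 of 20 members tested rose and 7 fell, while 2 did not pass (7 rose and 4 fell with the spread of all 6 libraries). Stat3, which carries signals of interleukin-6 type cytokines, rose from 114 and 119.7 to 321 and 327 CPM (log2 change 1.47, SE 0.06, adjusted p = 2.3e-07). Its feedback inhibitor Socs3 had 123 and 75.9 CPM in leukemia 92 and 22.4 and 36.7 CPM in pro-B cells (log2 change 1.76, adjusted p = 0.033). The 2 leukemia libraries differed in Socs3, and its call was lost in 7 of the 11 other settings at this threshold. Socs2, an inhibitor induced by STAT5, fell from 52.6 and 40.3 to 8.92 and 6.57 CPM (-2.58).

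Several inhibitors of the cell cycle rose strongly. Cdkn2a, the locus of both p16Ink4a and p19Arf, had 103 and 95.4 CPM in leukemia 92 and 0.188 and 0.198 CPM in pro-B cells (log2 change 8.97, SE 0.14, adjusted p = 7.2e-09). Its neighbour Cdkn2b, which encodes p15Ink4b, had 27.2 and 25.99 CPM in leukemia 92 and 0 counts in pro-B cells, at least 460.5-fold higher. Cdkn1a, which encodes p21, had 418 and 383 CPM in leukemia 92 and 37.2 and 25.4 CPM in pro-B cells (log2 change 3.68, SE 0.2, adjusted p = 8.7e-05). These 3 inhibitors were higher in both leukemia libraries than in either pro-B library. The counts per gene do not say which of the Cdkn2a products was read. Cdkn2c, the p18 inhibitor, fell from 70.8 and 73.5 to 15.7 and 15.6 CPM (-2.21), and over the list of inhibitors and G1 regulators 10 of 21 members tested rose and 9 fell, while 2 did not pass (4 rose and 4 fell with the spread of all 6 libraries).

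Trp53 itself had 116 and 121 CPM in leukemia 92 and 126 and 119.6 CPM in pro-B cells and did not pass (log2 change -0.05, adjusted p = 0.50), although with scaling by total counts it was called lower (adjusted p = 0.017). Of p53 and its targets, 19 of 29 members tested rose and 7 fell, while 3 did not pass (10 rose and 1 fell with the spread of all 6 libraries), and 13 rose at least 2-fold. Zmat3, a p53 target that binds RNA, had 244 and 238 CPM in leukemia 92 and 9.06 and 9.7 CPM in pro-B cells (log2 change 4.68, SE 0.07, adjusted p = 7.2e-09). Phlda3, an Akt inhibitor, rose from 1.65 and 2.06 to 27.96 and 27.8 CPM (3.91), Ccng1, cyclin G1, from 127 and 118 to 473 and 433 CPM (1.89), and Mdm2, the ligase that degrades p53, from 108 and 116 to 221 and 211 CPM (0.94, adjusted p = 0.088 with the spread of all 6 libraries). Gadd45a and Plk2 of the same list fell (-2.2 and -1.8), and both calls were lost with that spread (adjusted p = 0.14 and 0.067).

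Members of the BCL2 family rose on both sides of the balance between survival and death. Of the list, 14 of 16 members tested rose and 1 fell, while 1 did not pass, with a median log2 change of 1.42. Without leukemia 92 replicate 2, 2 of 17 fell. Bcl2a1d, a survival gene, had 30.2 and 26.04 CPM in leukemia 92 and 0.0752 and 0.158 CPM in pro-B cells (log2 change 7.86, SE 0.24, adjusted p = 6.9e-08). It has near-identical copies whose reads the counting could split, so its level is uncertain. Mcl1, another survival gene, rose from 481 and 514 to 1104 and 1126 CPM (1.16). Among genes that promote death, Bbc3 (PUMA) rose from 2.52 and 3.33 to 25.4 and 21.4 CPM (3.004), Bax from 44.2 and 46.2 to 219.6 and 207 CPM (2.24), and Pmaip1 (NOXA) from 12.1 and 21.1 to 156 and 157 CPM (3.24). Pmaip1 no longer passed when leukemia 92 replicate 1 was left out (adjusted p = 0.079), or its replicate 2 (0.068).

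Replication and mitosis genes were lower, nearly without exception. Of the DNA replication genes, 0 of 35 members tested rose and 33 fell, while 2 did not pass, with a median log2 change of -0.86. Pola1, the catalytic subunit of the priming polymerase, had 62.4 and 67.9 CPM in leukemia 92 and 198 and 184 CPM in pro-B cells (log2 change -1.55, SE 0.07, adjusted p = 5.3e-07). Mcm5, of the replicative helicase, fell from 417 and 434 to 168 and 184 CPM (-1.27), Gins3 fell (-1.41), and Pcna, the sliding clamp, fell from 516 and 501 to 252 and 279.9 CPM (-0.93). Of the mitotic genes, 0 of 30 members tested rose and 30 fell, while 0 did not pass, and 24 fell at least 2-fold against 19.5% of all genes. Ccna2, cyclin A2, had 99.3 and 110.2 CPM in leukemia 92 and 422 and 437 CPM in pro-B cells (log2 change -2.04, SE 0.07, adjusted p = 1.1e-07). Cenpf, a kinetochore protein, fell from 228 and 239 to 55.9 and 52.3 CPM (-2.11), Top2a, topoisomerase II alpha, from 1611 and 1552 to 440.3 and 477 CPM (-1.79) and Mki67, the Ki-67 antigen, from 1448 and 1358 to 532 and 542 CPM (-1.39). Levels remained well above detection in leukemia 92, and the share of cycling cells was not measured.

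Most genes of the ATR and CHK1 checkpoint were lower too. Of the list, 3 of 25 members tested rose and 19 fell, while 3 did not pass (1 rose and 9 fell with the spread of all 6 libraries), with a median log2 change of -0.63. Atr had 58.5 and 62.6 CPM in leukemia 92 and 104 and 103 CPM in pro-B cells (log2 change -0.78, SE 0.07, adjusted p = 1.6e-05). Chek1, the kinase that ATR activates, had 30.4 and 30.6 CPM in leukemia 92 and 68.6 and 65.05 CPM in pro-B cells (log2 change -1.13, SE 0.07, adjusted p = 2.1e-06). Both kinases were lower in both leukemia libraries. Etaa1, an activator of ATR, fell (-1.15, adjusted p = 0.053 with the spread of all 6 libraries). Cdc25b, a phosphatase that lets cells enter mitosis, fell from 336 and 342 to 21.5 and 26.4 CPM (log2 change -3.83, SE 0.1, adjusted p = 4.2e-08). Rpa1, of the complex that coats single-stranded DNA, rose (0.4), and so did Rad9, of the clamp that activates ATR (0.42, adjusted p = 0.067 with that spread).

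Brip1 stood apart from the other genes of homologous recombination. Of that list, 4 of 32 members tested rose and 20 fell, while 8 did not pass (1 rose and 10 fell with the spread of all 6 libraries), and of the members that fell 10 did so at least 2-fold. With scaling by total counts 2 rose. Brip1, the helicase FANCJ that works with BRCA1, had 1321 and 1227 CPM in leukemia 92 and 48.7 and 45.8 CPM in pro-B cells (log2 change 4.75, SE 0.08, adjusted p = 7.2e-09). It was the 1 member of the list that rose at least 2-fold. Its partners were lower: Bard1 had 17.1 and 19.1 CPM in leukemia 92 and 48.7 and 43.9 CPM in pro-B cells (-1.36), and Brca1 34.9 and 36.2 against 90.1 and 87.7 CPM (-1.32, adjusted p = 0.14 with the spread of all 6 libraries). Fancd2, the Fanconi protein that the core complex marks with ubiquitin, had 34.7 and 38.4 against 82.3 and 86.3 CPM (-1.21), and Rad51c fell (-1.33). Rad51l3 (RAD51D) rose (0.65, adjusted p = 0.14 with that spread). In leukemia 1, scaled with all 6 libraries, Brip1 was at 49.4 and 27.5 CPM, so the high level was found in leukemia 92 alone among the 3 groups.

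**Figure D4:**
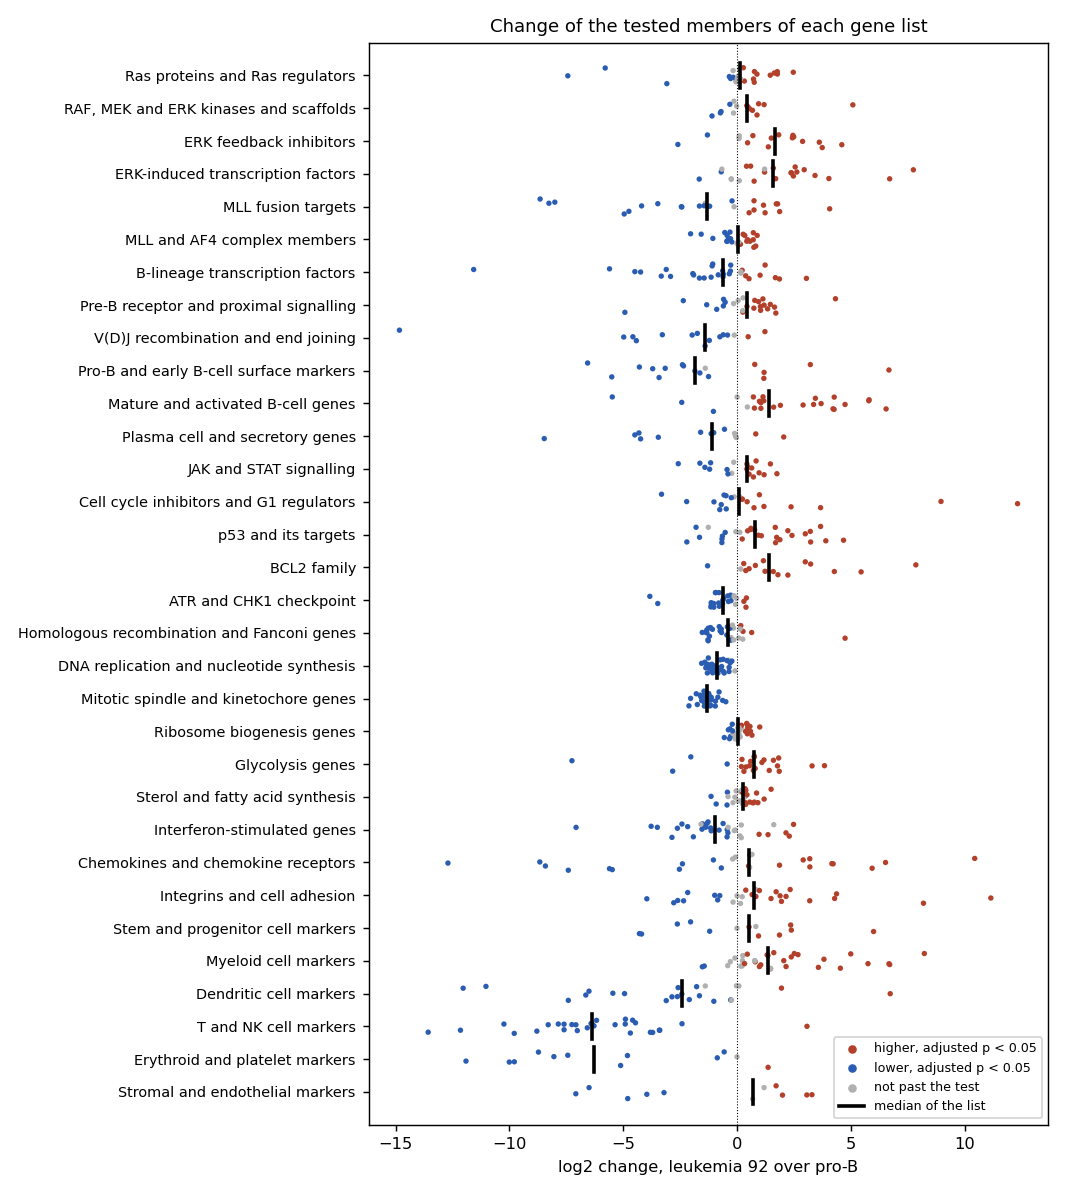
Log2 changes, leukemia 92 over pro-B, of the tested members of each of the 32 gene lists, with a bar at each list's median and colour for the call. Mitotic genes lie to the left of 0 throughout (30 of 30 lower), ERK feedback inhibitors lie mostly to the right (12 of 16 higher), and Brip1 is the far right point of the homologous recombination row at 4.75.

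Growth and metabolism genes changed in part. Of the ribosome biogenesis genes, 10 of 31 members tested rose and 7 fell, while 14 did not pass (2 rose and 1 fell with the spread of all 6 libraries), and 11 fell with scaling by total counts. Ppan (1.001) rose, Npm1, nucleophosmin, fell (-0.56), and the calls of Polr1a (0.66) and Dkc1 (-0.38) were lost with the spread of all 6 libraries (adjusted p = 0.062 and 0.17). Of the glycolysis genes, 19 of 23 members tested rose and 4 fell, while 0 did not pass (12 rose and 2 fell with the spread of all 6 libraries). Aldoa, aldolase A, rose from 120.2 and 136 to 462 and 466 CPM (1.86) and Slc2a1, the glucose carrier GLUT1, from 14.6 and 17.02 to 58.3 and 54.3 CPM (1.83). The lactate carriers went opposite ways, with Slc16a3 (MCT4) at 12.1 and 10.1 against 0.94 and 0.594 CPM (3.85) and Slc16a1 (MCT1) at 30.9 and 35.03 against 219 and 247 CPM (-2.82). Ldhb, a lactate dehydrogenase subunit, fell from 22.7 and 26.3 to 0.126 and 0.19 CPM (-7.25, adjusted p = 0.064 with that spread). Hk3, a hexokinase of myeloid cells, rose (3.3, adjusted p = 0.00010), a call lost with the spread of all 6 libraries (adjusted p = 0.054).

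Sterol and fatty acid synthesis changed less. Of that list, 13 of 27 members tested rose and 4 fell, while 10 did not pass (2 rose and 0 fell with the spread of all 6 libraries). Scd1, a desaturase, rose (1.5), Fdps, of the mevalonate pathway, rose (1.2), and Elovl6 (-1.14) and Insig1 (-0.91) fell with adjusted p values of 0.056 and 0.35 under the spread of all 6 libraries. Within leukemia 92, 25 of the 27 genes were higher in replicate 1 than in replicate 2 (median log2 difference 0.19).

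Interferon-stimulated genes were mostly lower. Of these, 5 of 34 members tested rose and 21 fell, while 8 did not pass (2 rose and 6 fell with the spread of all 6 libraries), with a median log2 change of -0.96. Without pro-B replicate 1 the rises were 3 and without its replicate 2 they were 2. Ifi44 had 0.293 and 0 CPM in leukemia 92 and 22.4 and 20.7 CPM in pro-B cells (log2 change -7.07, SE 0.43, adjusted p = 1.6e-05). Bst2 (tetherin) fell from 366 and 425 to 54.7 and 54.7 CPM (-2.85). Irf7 fell from 55.5 and 55.5 to 13.6 and 4.24 CPM (-2.62), and its call was lost without either pro-B library (adjusted p = 0.13 and 0.18), with no filter on low counts (0.099) and with the spread of all 6 libraries (0.13). Bst2 and Irf7 are also markers of plasmacytoid dendritic cells, whose marker transcripts were higher in the pro-B libraries. Cmpk2 (-3.5) and Oas2 (2.16), a fall and a rise, were lost with that spread (adjusted p = 0.090 and 0.21), and the rise of Oasl1 (2.3) without pro-B replicate 2 (adjusted p = 0.079). The leukemia libraries differed from each other here: 33 of 34 genes were higher in replicate 1, with a median log2 difference of 0.71, against 19 of 34 in the pro-B pair.

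Chemokine and adhesion genes moved both ways and by large amounts. Of the chemokines and receptors, 11 of 25 members tested rose and 10 fell, while 4 did not pass (7 rose and 8 fell of 26 tested with the spread of all 6 libraries). Ccr6, a homing receptor of B and dendritic cells, had 49.3 and 27.9 CPM in leukemia 92 and 2.14 and 1.98 CPM in pro-B cells (log2 change 4.23, SE 0.39, adjusted p = 0.00073). Ccr1, a receptor of myeloid cells, rose from 1.43 and 2.45 to 205 and 152 CPM (6.53). Xcl1 and Ccl5, chemokines made by natural killer and T cells, were at 0 and 0 against 30.6 and 38.05 CPM (at least 513-fold lower) and at 0.167 and 0.0952 against 55.4 and 56.9 CPM (-8.66). Of the integrins and adhesion molecules, 15 of 28 members tested rose and 8 fell, while 5 did not pass (12 rose and 4 fell with the spread of all 6 libraries). Cdh17, a cadherin of gut epithelium and of some B cells, had 1122 and 1105 CPM in leukemia 92 and 0.338 and 0.633 CPM in pro-B cells (log2 change 11.16, SE 0.14, adjusted p = 5.4e-09). Selp, P-selectin, had 96.98 and 75.7 CPM in leukemia 92 and 0.301 and 0.277 CPM in pro-B cells (log2 change 8.2, SE 0.23, adjusted p = 1.8e-07). L1cam rose from 7.89 and 8.55 to 163 and 159 CPM (4.29) and Cdh1, E-cadherin, from 54.02 and 64.2 to 269.8 and 328 CPM (2.34). Itga5, a fibronectin receptor chain, and Itga2, a collagen receptor chain, fell (-2.6 and -2.78).

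The markers of other cells separated into those higher in pro-B cells and those higher in leukemia 92. Of the T and natural killer markers, 1 of 29 members tested rose and 28 fell, while 0 did not pass, and 3 had 0 counts in leukemia 92. A mean of at least 1 CPM was reached by 9 of the 29 in leukemia 92 and by 29 in pro-B cells. Members near 0 in leukemia 92 passed the count filter through the pro-B pair, so their fall was nearly fixed in advance. Ncr1, the activating receptor NKp46, had 64.8 and 60.5 CPM in pro-B cells and 0 counts in leukemia 92 (at least 939-fold lower). Cd7 had 0.126 and 0.19 against 133 and 151 CPM (-9.78). Cd3e, a chain of the T-cell receptor complex, had 2.71 and 1.94 CPM in pro-B cells and 1 count in leukemia 92 (105-fold lower, with a 95% exact interval of 18.5 to 4172). Cd5, a glycoprotein of T cells and of a B-cell subset, was the exception and rose from 3.35 and 3.68 to 28.2 and 31.2 CPM (3.08).

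Of the dendritic cell markers, 2 of 23 members tested rose and 17 fell, while 4 did not pass. Siglech, a defining lectin of plasmacytoid dendritic cells, had 34.5 and 33.03 CPM in leukemia 92 and 1389 and 1568 CPM in pro-B cells (log2 change -5.45, SE 0.09, adjusted p = 7.2e-09). Cd209d had 112 and 118 CPM in pro-B cells and 1 count in leukemia 92 (5152-fold lower, with a 95% exact interval of 924 to 203511), and Klk1 had 1 count against 53.6 and 60.9 CPM (2568-fold lower, with a 95% exact interval of 461 to 101464). Zbtb46, a factor of conventional dendritic cells, rose from 0.526 and 0.673 to 70.1 and 58.2 CPM (6.73), and Itgax, which encodes CD11c, rose (1.96). Of the erythroid and platelet markers, 1 of 12 members tested rose and 10 fell, while 1 did not pass, and 4 had 0 counts in leukemia 92. The median log2 change of that list was -6.27, and -5.06 with those genes at their floor bound. Of the 20 markers matched, 4 had a mean of at least 1 CPM in leukemia 92 and 13 in pro-B cells. Here too, members near 0 in leukemia 92 passed the count filter through the pro-B pair, so their fall was nearly fixed in advance. Hbb-b1, a beta globin, had 0.0837 and 0.381 CPM in leukemia 92 and 37.1 and 83.4 CPM in pro-B cells (-8.04), and Slc4a1, the red cell anion exchanger, was at least 294-fold lower. The pro-B replicates differed in this list by a median log2 difference of -1.08, and the calls of Hbb-b1 (adjusted p = 0.19 and 0.17) and Slc4a1 (0.21 and 0.20) were lost without leukemia 92 replicate 1 and without its replicate 2, that of Slc4a1 also with no filter on low counts (0.21). The count of this list rested on single libraries: 4 of 18 members tested fell without leukemia 92 replicate 1, 5 of 18 without its replicate 2, and 16 of 18 without pro-B replicate 1.

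Most myeloid genes were higher in leukemia 92, while several granule genes did not pass. Of the list, 22 of 34 members tested rose and 2 fell, while 10 did not pass (10 rose and 0 fell with the spread of all 6 libraries), with 18 rises of at least 2-fold (10 with that spread). The falls were 4 without leukemia 92 replicate 1, and 1 without its replicate 2 or without pro-B replicate 1. Cd14, the coreceptor for lipopolysaccharide, had 727 and 707 CPM in leukemia 92 and 1.92 and 2.85 CPM in pro-B cells (log2 change 8.24, SE 0.13, adjusted p = 7.9e-09). Csf1r, the receptor of macrophage growth factor, had 472 and 444 CPM in leukemia 92 and 3.61 and 5.34 CPM in pro-B cells (log2 change 6.68, SE 0.15, adjusted p = 1.2e-07). Both were low in each pro-B library and high in each leukemia library. Csf2ra, a receptor chain for GM-CSF, rose from 20.5 and 19.95 to 247 and 236 CPM (3.58), Fcgr3, an Fc receptor, from 5.04 and 5.7 to 144 and 106 CPM (4.55), Itgam (CD11b) from 93.9 and 78.5 to 403 and 367 CPM (2.16) and Cebpb from 1.28 and 1.43 to 19.2 and 19.2 CPM (3.82). Mmp9, a gelatinase, rose (5.001, adjusted p = 0.075 with the spread of all 6 libraries), and so did Lyz2, lysozyme M (2.68), whose call was lost without either pro-B library (adjusted p = 0.083 and 0.12) and with that spread (0.17).

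The neutrophil granule genes S100a8 (0.79), S100a9 (0.78), Ltf (-0.4), Camp (-0.09), Ngp (0.17), Mpo (-0.29) and Elane (0.22) did not pass. S100a9 was at 295 and 174 CPM in leukemia 92 and 135 and 138 CPM in pro-B cells, and Mpo at 9.12 and 5.66 against 6.62 and 11.6 CPM, so the libraries of the 2 groups overlapped for Mpo. When 1 leukemia library was left out, the lone one is taken to vary like the pro-B pair, and several of these genes passed. Without leukemia 92 replicate 1, S100a8 (adjusted p = 0.0020) and S100a9 (0.0026) were higher, and Ltf (4.0e-06), Camp (0.00082) and Ngp (0.0022) were lower. Without its replicate 2, S100a8 (adjusted p = 1.0e-06), S100a9 (7.4e-07), Camp (0.022) and Ngp (0.00013) were all higher, so the direction of Camp and Ngp depended on the library. Cebpa, the factor of granulocyte progenitors, fell (-1.52, adjusted p = 0.27 with the spread of all 6 libraries). Within leukemia 92, 29 of 32 myeloid genes were higher in replicate 1 (median log2 difference 0.38). Whether myeloid genes were read from leukemia cells or from myeloid cells of the marrow was not tested.

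Stem and progenitor markers had no common direction: 6 rose, 5 fell and 2 did not pass (4 rose and 3 fell of 15 tested with the spread of all 6 libraries) of 13 tested. Lyl1 and Tal1, basic helix-loop-helix factors of stem cells, rose (2.36 and 2.39), and Ly6a, which encodes Sca1, used to sort the starting cells, fell from 13.5 and 16.1 to 3.01 and 1.76 CPM (-2.62, adjusted p = 0.11 with the spread of all 6 libraries). Of the stromal and endothelial markers, 4 of 11 members tested rose and 5 fell, while 2 did not pass (3 rose and 3 fell of 13 tested with the spread of all 6 libraries). Pdgfrb rose (3.07), Fn1, fibronectin, had 88.1 and 166 CPM in leukemia 92 and 12.9 and 12.9 CPM in pro-B cells (3.3, adjusted p = 0.12 with that spread, and 0.078 and 0.11 without pro-B replicate 1 and 2), and Cdh5 and Eng, of endothelial cells, fell (-3.96 and -3.2). The stromal collagen genes Col1a1, Col1a2 and Col3a1 were too low to be tested.

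The strongest rises among genes of at least 20 CPM were read from next to nothing in pro-B cells. Krt75, a keratin of hair follicles, had 162 and 122 CPM in leukemia 92 and 0 counts in pro-B cells (at least 2479-fold higher). Otogl, an otogelin-like protein of the inner ear, had 3 counts in pro-B cells and 339 and 284 CPM in leukemia 92 (5415-fold higher, with a 95% exact interval of 1853 to 26261). Npr3, a clearance receptor for natriuretic peptides, had 119 and 113 CPM (2011-fold higher, with a 95% exact interval of 688 to 9756, from 3 counts). Ntrk2, the receptor TrkB, had 33.5 and 59.3 CPM (at least 788-fold higher) and Col6a6, a collagen VI chain, 401 and 487 CPM against 0.338 and 0.475 CPM (10.08). The stefins, inhibitors of cathepsins, were in the same set, Stfa1 at least 703-fold higher, Stfa2 at least 988-fold higher and Stfa3 3281-fold higher, with a 95% exact interval of 588 to 129650.0. Stefin genes are near-identical copies, so reads could be split among them. Cdkn2b and Cdh17 complete the set of 10. The calls of Stfa1 (adjusted p = 0.13), Stfa2 (0.0504) and Ntrk2 (0.098) were lost with no filter on low counts, that of Stfa1 also without pro-B replicate 2 (0.061), and that of Ntrk2 with the spread of all 6 libraries (0.070).

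Of the 10 strongest falls, 6 were of natural killer cell genes. Besides Ncr1 and Xcl1 these were Klra1, Klra4, Klra8 and Klra23, of the Ly49 receptor family, each at 0 counts in leukemia 92. Klra4 had 59.7 and 66.6 CPM in pro-B cells (at least 944-fold lower), and the members of this family are so alike that reads could be split among them. Mmrn1, multimerin of platelets and endothelium, was at least 704-fold lower, Khdrbs3, an RNA-binding protein, was at least 393-fold lower, and Cd209d is described above. Dntt completes the set.

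Leukemia 92 was set against leukemia 1 in a fit of all 6 libraries, to see which of the genes above mark leukemia 92. Of 14979 genes tested, 273 were higher (1.82%) and 190 lower (1.27%), 3.09% in all. Of the 145 genes named by rule, 16 passed, 11 higher and 5 lower in leukemia 92. Apart from 24 genes of the model, the 145 were picked for large changes in the same leukemia 92 libraries. Their share of calls can thus not be set against the 3.09% of all genes. With all 6 libraries scaled together, Krt75 was at 0 and 0.074 CPM in leukemia 1 (log2 difference 11.64, adjusted p = 0.023). Brip1 differed by 5.02 (adjusted p = 0.023) and Dusp7, at 63.7 and 69.6 CPM in leukemia 1, by 1.98 (adjusted p = 0.023). Mllt3 was lower in leukemia 92 than in leukemia 1 (-1.64, adjusted p = 0.031). The leukemia 1 libraries stood far apart, and these counts rest on the pro-B pair for part of their spread: 0 genes passed with the 4 leukemia libraries alone (2366 at an unadjusted p under 0.05 in edgeR), and DESeq2 called 1323 higher and 1340 lower. Without leukemia 1 replicate 1 the counts were 3869 and 4106, without its replicate 2 they were 3909 and 4224, and without leukemia 92 replicate 1 or 2 they were 0 (1552 and 1704 genes at an unadjusted p under 0.05 in edgeR).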

How the data were processed

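RNA of 6 libraries was read as a table of counts per gene, which the authors deposited as whole numbers. Per the submitters' processing notes, STAR 2.4, HTSeq 0.6.1, DESeq2 and the build mm9 were used, with no role or order given, and the strand setting is not given in the sources used here. The 5 entries that name no gene held 34.0% to 39.6% of a library and were left out, which leaves 33924 genes. Columns were tied to samples by name. The 4 libraries of leukemia 92 and pro-B cells were fitted with the robust quasi-likelihood test of edgeR 4.0.16 under R 4.3.3, after a filterByExpr minimum of 10 counts and TMM scaling, with all 6 libraries for leukemia 92 against leukemia 1. SE values come from the F statistic. A fold against 0 counts uses a floor of 3 counts over the pair, and with 1 to 3 counts a 95% exact interval, both for counting error alone. Members, lists and comparisons were chosen with earlier results of these data known, and 32 lists of 801 entries (798 matched) are described without a set test.

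Genes were named by rule: 24 genes of the model, the 10 largest rises and falls of at least 20 CPM with no overlap of the libraries (no predicted genes or antigen receptor segments), and at most 2 called genes of each list and direction with the largest change at 10 CPM or more. This gave 145 genes, and other genes named in the text were chosen after their values were seen. Some genes are not reported here. On simulated data for leukemia 92 against pro-B cells (14251 genes), 73.7% of 2-fold and 90.7% of 4-fold changes were recovered. There 26 unchanged genes were called, and their share of all calls is not given here. For leukemia 92 against leukemia 1 (14536 genes), 3.06% and 40% were recovered. Recovery with a share of changed genes as large as the 71.6% called in these data was not tested. Alternatives were DESeq2 1.42.0, other scalings, no filter, a stricter p, the replicate number as a block, summed leukemia libraries, the spread of all 6 libraries and each library left out. Promoter letters came from RefSeq tables of the build GRCm38.p6, which is not the build of the counts.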

Additional observations from a re-analysis of the deposited data

Results flagged for a closer look

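For 16 of the 145 genes named by rule the level in leukemia 92 differed from that in leukemia 1 by a test of the difference (edgeR, all 6 libraries, adjusted p under 0.05). Most of the 145 had been picked for large changes in the same leukemia 92 libraries, so the test is not independent of the choice. The genes higher in leukemia 92, by the log2 difference, were Krt75 (11.64), Brip1 (5.02), Ccr6 (3.18), Pdgfrb (3.01), Selp (2.11), Stfa3 (1.99), Dusp7 (1.98), Zbtb46 (1.83), Col6a6 (1.82), Cd5 (1.64) and Rps6ka1 (1.11). Those lower in leukemia 92 were Tspan13 (-2.23), Mllt3 (-1.64), Bard1 (-1.28), Ccna2 (-0.92) and Cenpf (-0.87). The 2 libraries of leukemia 1 differed from each other with an SD of 1.04 on the log2 scale, and all 16 calls were lost with the replicate block, with the 4 leukemia libraries alone and without either leukemia 92 library.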

How the results depend on the processing

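For leukemia 92 against pro-B cells, the counts of genes called moved by over 1.5 times in 1 of the 12 other settings, the spread of all 6 libraries, which left 2198 higher and 2498 lower. Each left-out library gave 4322 to 4684 higher and 4938 to 5207 lower, and DESeq2 gave 4305 and 4827. Of the 145 genes named by rule, 100 kept their call in all 11 settings at an adjusted p under 0.05 and 134 in all but the spread of all 6 libraries, and no gene of the 145 changed direction. Most of the 145 were picked as called genes with large changes, which favours such stability. Of 84 further genes named in the text, 71 were unchanged in all but the spread of all 6 libraries. Among granule genes, not called with all libraries, leaving out 1 library gave log2 changes of -0.68 to 0.16 for Mpo, -0.17 to 0.73 for Elane, -1.04 to 0.035 for Ltf, -0.68 to 0.33 for Camp and -0.36 to 0.57 for Ngp, with the calls in each case given above. For leukemia 92 against leukemia 1, 273 higher and 190 lower became 1323 and 1340 with DESeq2 and 0 and 0 with the 4 leukemia libraries alone, and leaving out 1 library gave 0 to 3909 higher and 0 to 4224 lower. The cause was not tested. With the replicate number as a block the comparison with pro-B cells gave 4867 higher and 5401 lower genes, and that with leukemia 1 gave 0 and 0 (3042 at an unadjusted p under 0.05 in edgeR). Libraries of the same number did not deviate together over all genes (correlation -0.03), and nothing in the labels says that the numbers pair libraries. Whether they do was not tested further. Of the 145 genes the block ended the call of Socs3 (adjusted p = 0.22). Of further genes it ended that of Irf7 (0.14) and called Vpreb1 higher (0.027). With 2 libraries of 1 leukemia no statement about other leukemias can be made, and a level under 3 counts in a library is at the limit of this depth.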

Other observations

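Gene families picked by symbol after their values were seen add to this picture. Their counts were not taken in the other settings. Of 9 Hoxb genes with any count 6 were tested, and all 6 rose. All of these but Hoxb4 had at most 10 counts over the pro-B pair. They passed the count filter through leukemia 92, so a rise was nearly fixed in advance. Hoxb7 had 11.8 and 11 CPM in leukemia 92 and 1 count in pro-B cells (594-fold higher, with a 95% exact interval of 106 to 23493), and Hoxb6 had 4.02 and 4.38 CPM and 1 count (217-fold higher, with a 95% exact interval of 38.5 to 8621). Hoxb4 was at 5.27 and 6.33 against 4.25 and 3.76 CPM (0.53), and its call was lost in 6 of the 11 other settings at the same threshold. Of the Notch pathway genes 3 of 17 tested rose and 11 fell. Notch1 was among the falls (-0.55), and its call was lost with the spread of all 6 libraries (adjusted p = 0.19). Notch3 had 0.0419 and 0.238 CPM in leukemia 92 and 18.9 and 18.5 CPM in pro-B cells (-7.07), and Hes1, a direct target of Notch, fell from 27.4 and 28.3 to 0.209 and 0.333 CPM (-6.68). Jag2, a Notch ligand, rose from 3.53 and 4.71 to 21.97 and 24.6 CPM (2.5).

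Of the enzymes that write or remove DNA methylation, 4 of 6 fell and 2 rose. Tet1, which oxidises methylcytosine, had 0.293 and 0.286 CPM in leukemia 92 and 31.4 and 33.5 CPM in pro-B cells (log2 change -6.78, SE 0.17, adjusted p = 3.0e-08), while its relatives Tet2 and Tet3 rose slightly (0.69 and 0.62), with adjusted p values of 0.26 and 0.099 under the spread of all 6 libraries. Dnmt1, the maintenance methyltransferase, fell from 486 and 493 to 205 and 218 CPM (-1.21) and Dnmt3b from 30.2 and 29.6 to 6.15 and 5.76 CPM (-2.33). Of the Toll-like receptors, 6 of 11 tested rose and 4 fell. Tlr13, a sensor of bacterial ribosomal RNA, rose from 0.827 and 0.871 to 67.6 and 41.6 CPM (6.002), and Tlr7, which is also a marker of plasmacytoid dendritic cells, fell from 94.4 and 101 to 28.4 and 28.9 CPM (-1.77).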
